A study of Oncorhynchus mykiss with 8 samples.

Results

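Complement is a set of plasma proteins, made mainly in the liver, that cut and activate one another in a cascade once a pathogen is bound. The classical and lectin pathways start with serine proteases that cleave C4, all pathways meet at C3, whose fragment coats the target, and the cascade ends with C9, which polymerizes into the pore of the membrane attack complex. The C1 inhibitor, a serpin, holds the cascade back by trapping the proteases C1r, C1s and those of the lectin pathway. Trout carry several copies of C3, and the names on the array do not say which copy a probe reads.

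The members examined here were all probes whose name contains complement C, complement component, complement factor or C1 inhibitor, leaving out C1q-like proteins. This gave 6 of 43603 probes, out of 1494 that have any name or symbol. They were C3 (probe A_05_P433922), a C3-like sequence (A_05_P490817), C4 (A_05_P252169), C9 (A_05_P485237) and a pair of C1 inhibitor probes (A_05_P265959 and A_05_P475617). No probe was named as a complement factor. The names of these probes come from the study's table of genes more abundant in white muscle of the large fish. They were thus named from muscle, but in the same animals and in the direction of a lower level in small fish. Counts of members lower in small fish are therefore not free of this choice. Complement probes without a name were not analysed here.

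The ratios compare livers of small and of large rainbow trout (Oncorhynchus mykiss) of the Lyndon strain, a commercial strain, in a Sept. and in a Dec. lot. The lots are named for the month of crossing. The Sept. lot was sampled in early December and the Dec. lot in late February. The fish were about 15 months old, reproductively immature and reared on a commercial ration, and each lot came from 5 females crossed with 1 male, a different male for each lot. The labels give feeding as ad libitum, while the methods describe rations set by body weight and water temperature. The methods also state that fish went 2 days without food before they were weighed. Each array compared a pool of liver mRNA from 5 small fish with a pool from 5 large fish of the same lot. A lot has 2 such pool pairs, each hybridized on 2 arrays with the dyes exchanged (a dye flip), which makes 8 arrays in all. The fish were the 2 largest and the 2 smallest of each female's offspring, pooled by size rank. By the methods, the largest were set against the second smallest and the second largest against the smallest. The pool pairs of a lot thus differ in the size of their fish. Every fish of a lot therefore shares a father, the pools hide the spread between fish, and the probes were designed on Atlantic salmon sequences.

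Values are log2 ratios read as small over large fish, so a negative value means a lower level in small fish. The labels do not state the direction. Taken as deposited, the lot mean had the listed sign for all 725 entries that could be read from the study's liver lists. With the sign turned on 1 array of each dye flip, 326 had it. The study made those lists from these arrays, so the match shows how the study read the ratios and is no independent check. Its quantitative PCR of complement C1q-like protein 4 in Sept. liver, a separate measurement, gave a lower level in small fish. As deposited, the probe A_05_P332842 of that name was below 0 on all 4 Sept. arrays, in both dye orientations. This covers 1 probe in 1 lot, and the reading with the sign turned is given as an alternative. An array on which the small fish carried Alexa Fluor 647 is said to be in the 647 orientation, and its dye flip, with the small fish labelled in Alexa Fluor 555, in the 555 orientation. Of each lot, the value of the first pool pair is given before that of the second. All 6 members had a value on all 8 arrays, which were filled for 36754 to 41918 of the probes. Across all probes, the arrays of a dye flip correlated at -0.131 and 0.057 in the Sept. lot and at -0.144 and 0.0036 in the Dec. lot. The files hold ratios but no signal of a single dye, so the presence of liver markers could not be checked by level. Albumin, apolipoprotein A-I and apolipoprotein B, which hepatocytes secrete, had values on all arrays through 5 probes. In pooled liver, fewer cells of a type and less RNA per cell cannot be told apart.

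In the Dec. lot the lot mean of every one of the 6 members was below 0, between -0.65 for C9 and -0.038 for C3, with a median of -0.36 against 0.0083 over all probes tested. Among all probes, which were not picked by direction in muscle, 48.1% had a Dec. mean below 0. In the Sept. lot 3 of 6 means were below 0, the range was -0.22 for C9 to 0.23 for C4, and the median was -0.053 against 0.00083 over all probes (49.7% below 0). In the Dec. lot 1 of 6 members, C9, was lower in small fish past the thresholds used in the study, which were a fold change of at least 1.2 and an unadjusted p no higher than 0.05. Of all probes tested there, 4.84% passed in either direction and 2.75% passed as lower in small fish. In the Sept. lot 0 of 6 members passed, against 2.72% of all probes. The study, with its own test, named no member, C9 included, among its liver calls. At an adjusted p under 0.05 (limma, Benjamini-Hochberg over all probes) 0 probes passed in either lot, where 1054 in Sept. and 1647 in Dec. had an unadjusted p under 0.05. With 2 pool pairs to a lot, these p-values rest on the spread between pool pairs.

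**Figure D1:**
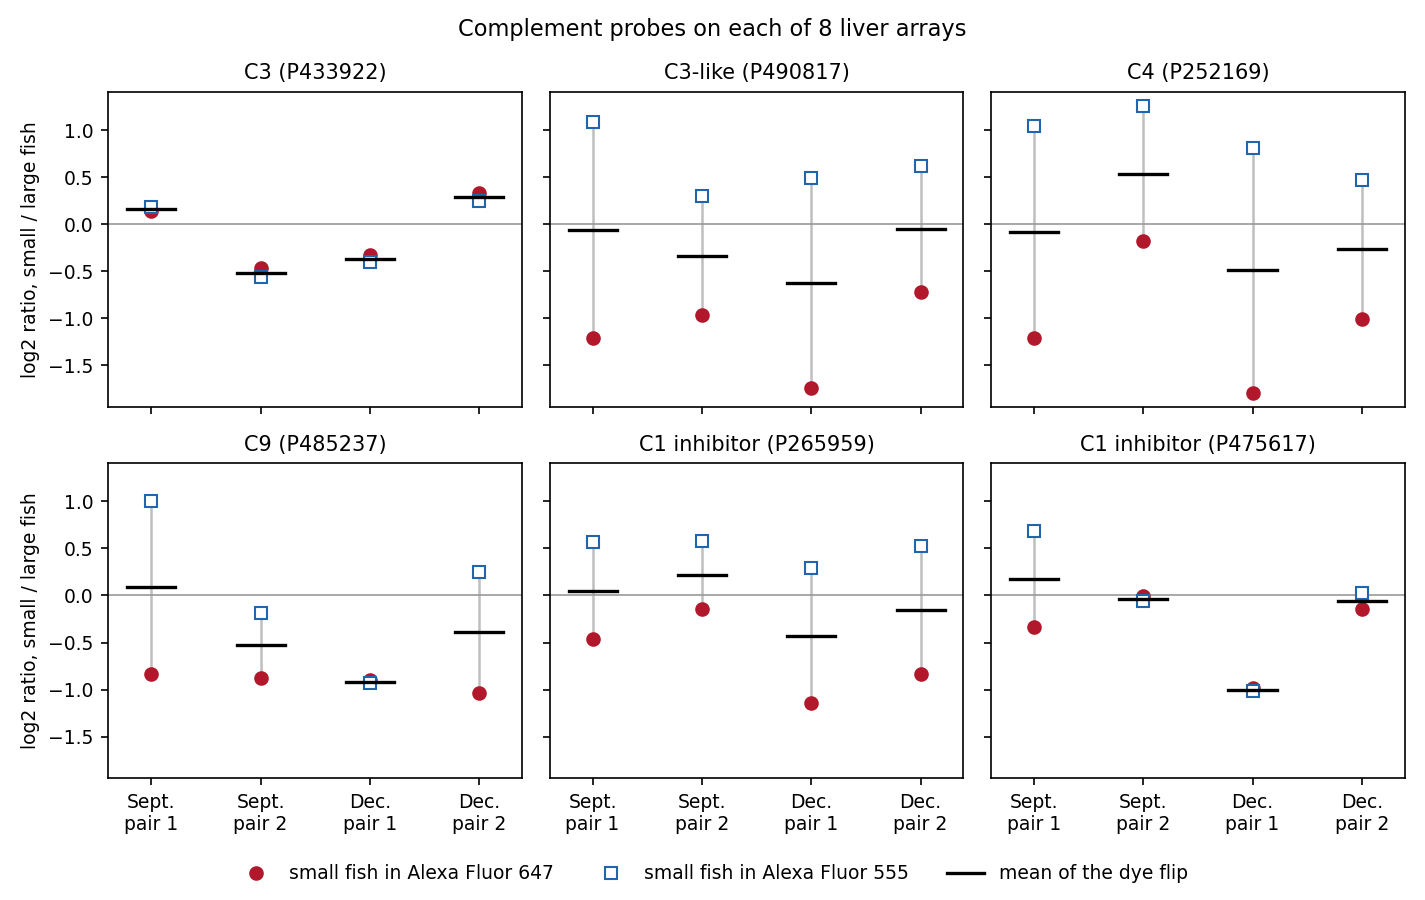
Log2 ratio of small over large fish (vertical axis) for each of the 6 probes in the 4 pool pairs (horizontal axis). Filled circles are arrays with small fish in Alexa Fluor 647, open squares those with small fish in Alexa Fluor 555, and black bars the mean of the dye flip. The circles and squares of C3 lie on top of each other in every pool pair, while those of C4 differ by -2.60 to -1.43 (circle minus square).

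C3, the protein on which all activation pathways converge, was the only member whose dye flips agreed closely in every pool pair. Its pool pairs did not repeat each other, with an SD of 0.48 in Sept. and 0.46 in Dec. In the first Sept. pool pair its log2 ratios were 0.14 in the 647 orientation and 0.18 in the 555 orientation, and in the second they were -0.47 and -0.57. In the first Dec. pool pair they were -0.33 and -0.40, and in the second 0.33 and 0.25. The arrays of a dye flip were thus within 0.1 of each other in all 4 pool pairs, which held for 0.105% of all probes. That bound lies just above the largest flip difference of C3 itself, 0.0971, so the share describes C3 and does not rate it. In each lot, by contrast, the pool pairs lay on opposite sides of 0. The lot means were -0.18 in Sept. and -0.038 in Dec. (limma, SE 0.25 each, adjusted p = 0.999974 and 0.999194). Flips were averaged before the fit, so for C3, as for every probe, the error was computed between pool pairs and not between the arrays of a flip.

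The C3-like probe, in contrast, split by dye orientation. In the 647 orientation its log2 ratios were -1.21 and -0.97 in Sept. against -1.74 and -0.72 in Dec. In the 555 orientation they were 1.09 and 0.30 in Sept. against 0.49 and 0.62 in Dec. All 4 arrays of one orientation were below 0 and all 4 of the other above it. After averaging the flips, the pool pairs stood at -0.062 and -0.33 in Sept. against -0.63 and -0.053 in Dec. The lot means were -0.20 in Sept. and -0.34 in Dec. (SE 0.19 each), and neither passed the thresholds. Over the 8 arrays C3 and the C3-like probe correlated at r = 0.14, a description over 4 pool pairs measured on 2 arrays each.

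C4 is the substrate that opens the classical and lectin pathways. In the 647 orientation it had log2 ratios of -1.21 and -0.18 in Sept. against -1.79 and -1.01 in Dec. In the 555 orientation it had 1.05 and 1.253 in Sept. against 0.80 and 0.47 in Dec. As with the C3-like probe, the orientations did not overlap, and the sign of the ratio followed the dye on all 8 arrays. The pool pair means were -0.081 and 0.54 in Sept. against -0.49 and -0.27 in Dec. The Sept. mean of 0.23 and the Dec. mean of -0.38 (limma, SE 0.19 each) both fell short of the thresholds.

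C9, the last component, had the lowest lot mean of the members in both lots with ratios read as deposited. With the sign turned in the 555 orientation it stood at -0.63 in Sept. and -0.31 in Dec., above C4 (-0.92 and -1.02) and the C3-like probe (-0.89 and -0.89) in both lots, and above A_05_P265959 (-0.70) in Dec. In Sept. its log2 ratios were -0.84 and -0.87 in the 647 orientation and 1.01 and -0.18 in the 555 orientation. In Dec. they were -0.90 and -1.03 in the 647 orientation and -0.94 and 0.25 in the 555 orientation. In Dec. the arrays in the 555 orientation disagreed, the first lying with the other orientation and the second above 0. The Dec. mean was -0.65 (limma, SE 0.22), a level 1.57-fold lower in small fish, past the thresholds but with an adjusted p of 0.990226. The pool pairs behind it were -0.92 and -0.39. Without the first Dec. pool pair C9 did not pass, nor did it with the methods' t-test over arrays or pool pairs, with arrays scaled to the same spread, with a trend in the variance prior, with the sign turned, or in the 555 orientation alone. The Sept. mean was -0.22 (SE 0.22), from pool pairs at 0.085 and -0.53, and did not pass.

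The C1 inhibitor, which restrains the first proteases of the cascade, was read by a pair of probes that differed from each other. Probe A_05_P265959 had log2 ratios of -0.47 and -0.14 in Sept. against -1.146 and -0.84 in Dec. in the 647 orientation. In the 555 orientation it had 0.57 and 0.58 in Sept. against 0.29 and 0.53 in Dec. Its sign followed the dye on every array. Its lot means were 0.14 in Sept. and -0.29 in Dec. (SE 0.14 each), neither past the thresholds.

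Probe A_05_P475617 of the C1 inhibitor showed the dye difference in 1 pool pair. Its log2 ratios in Sept. were -0.33 and -0.0043 in the 647 orientation, and 0.69 and -0.063 in the 555 orientation. In Dec. they were -0.98 and -0.15 in the 647 orientation, and -1.02 and 0.023 in the 555 orientation. The first Dec. pool pair was low on both arrays and the remaining Dec. and second Sept. pool pairs lay near 0. The lot means were 0.072 in Sept. and -0.53 in Dec. (limma, SE 0.25 each). The Dec. mean rests on pool pairs at -1.0001 and -0.062, and neither mean passed the thresholds. Over 8 arrays the C1 inhibitor probes correlated at r = 0.50, less than A_05_P265959 did with C4 (r = 0.96) or with the C3-like probe (r = 0.91). The probe sequences were not used here, and the copy of the gene that each probe reads is not known.

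The first Dec. pool pair was below 0 for all 6 members. The members were measured in the same pool pairs, and several correlated closely over the arrays, such as C4 with A_05_P265959 (r = 0.96). C3 did not follow C4 (r = -0.21). The members are therefore not 6 separate observations, and the shares of all probes are given for scale only. The median of the 6 members was 0.069 and -0.18 in the Sept. pool pairs and -0.56 and -0.11 in the Dec. pool pairs, while the median over all probes lay between -0.015 and 0.014. Both pool pairs of the Dec. lot were below 0 for 5 of 6 members, the exception being C3, against 20.9% of all probes, and both of the Sept. lot for 1 of 6, the C3-like probe, against 25.4%. On the level of single arrays, however, 0 of 6 members were below 0 on all 4 Dec. arrays (3.41% of all probes were) or on all 4 Sept. arrays (4.70%). Without the second Dec. pool pair 3 members passed as lower in small fish in Dec., C9 at -0.92, the C1 inhibitor probe A_05_P475617 at -1.0001 and the C3-like probe at -0.63, when 5.96% of all probes did, and without the first 0 passed. In those fits the spread comes from the Sept. pool pairs alone.

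**Figure D2:**
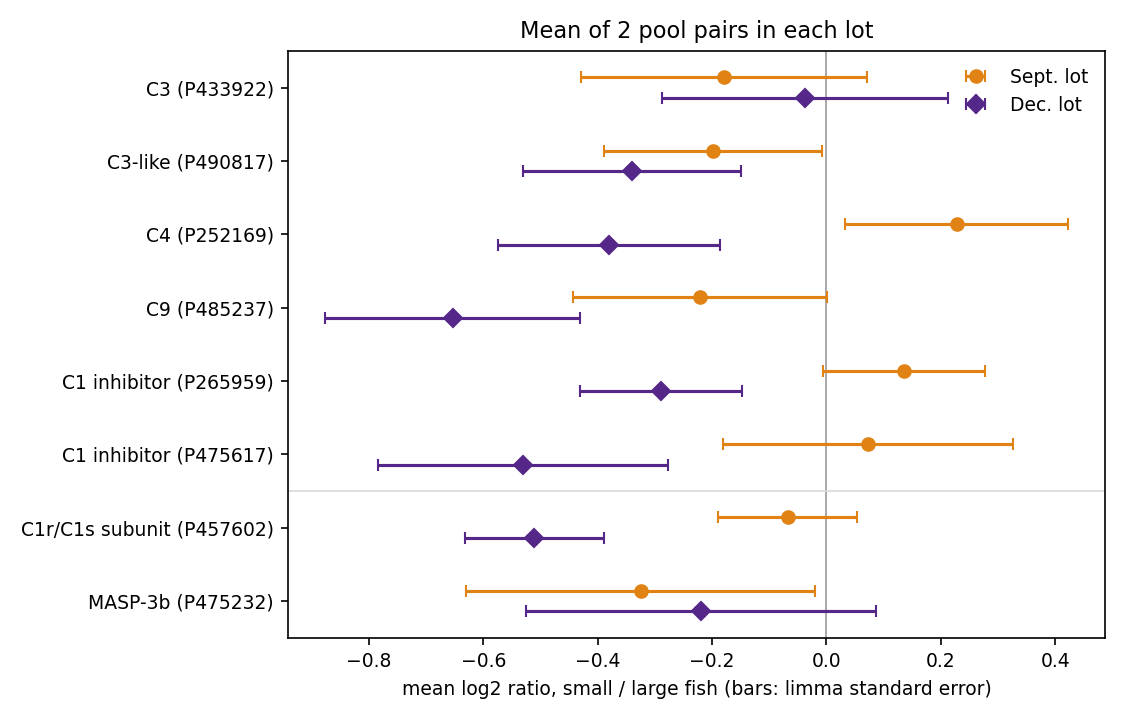
Mean log2 ratio of small over large fish (horizontal axis) of the 2 pool pairs of the Sept. lot (orange circles) and the Dec. lot (purple diamonds), with the limma standard error, for the 6 members and, below the line, the other named proteases of the pathway. All 6 Dec. means lie left of 0, from -0.65 for C9 to -0.038 for C3, and the Sept. means lie on both sides.

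The difference between the lots was tested in the same fit as Sept. minus Dec. The lots differ in parents, in season of sampling and in the body weights of the small and large fish compared. These cannot be told apart here. Of the members 0 passed an unadjusted p of 0.05, against 2.75% of all probes, and every adjusted p was 0.999956 (limma). The differences in log2 ratio were 0.61 for C4 (SE 0.27), 0.60 for the C1 inhibitor probe A_05_P475617 (SE 0.36), 0.43 for C9 (SE 0.32) and 0.43 for the C1 inhibitor probe A_05_P265959 (SE 0.20). They were 0.14 for the C3-like probe (SE 0.27) and -0.14 for C3 (SE 0.35). With errors of this size, a Dec. ratio below the Sept. ratio was not separated from the spread between pool pairs for any member.

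The ratios of several members followed the dye of the small fish. A term for dye orientation, 647 orientation minus 555 orientation, was fitted to the 8 arrays with a mean per lot and pool pairs as random blocks. It was -1.94 for C4 (limma, SE 0.28, adjusted p = 0.0435), -1.79 for the C3-like probe (SE 0.27, adjusted p = 0.0436) and -1.14 for the C1 inhibitor probe A_05_P265959 (SE 0.18, adjusted p = 0.0484). These 3 of 6 members passed an adjusted p of 0.05, against 0.949% of all probes, or 0.886% in the same direction. At an unadjusted p of 0.05 or less for the same term (limma), 4 of 6 members and 7437 of 33291 probes passed, so dye dependence was not particular to complement. A value as low as that of C4 was reached by 0.168% of probes, that of the C3-like probe by 0.303% and that of the C1 inhibitor probe by 3.47%. C9 had a dye term of -0.94 (SE 0.35, adjusted p = 0.173), the C1 inhibitor probe A_05_P475617 of -0.27 (SE 0.31, adjusted p = 0.632) and C3 of 0.053 (SE 0.27, adjusted p = 0.921). The median of the members was -1.04, against 0.072 over all probes. The adjusted p-values lie close to the threshold, and leaving out any of the 4 pool pairs left 0 members and 0 probes past it, with a term for C4 between -2.11 and -1.73, for the C3-like probe between -1.96 and -1.61 and for A_05_P265959 between -1.28 and -1.04. The orientations of the same 3 members did not overlap over the 8 arrays, as for 8.85% of probes in this direction.

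**Figure D3:**
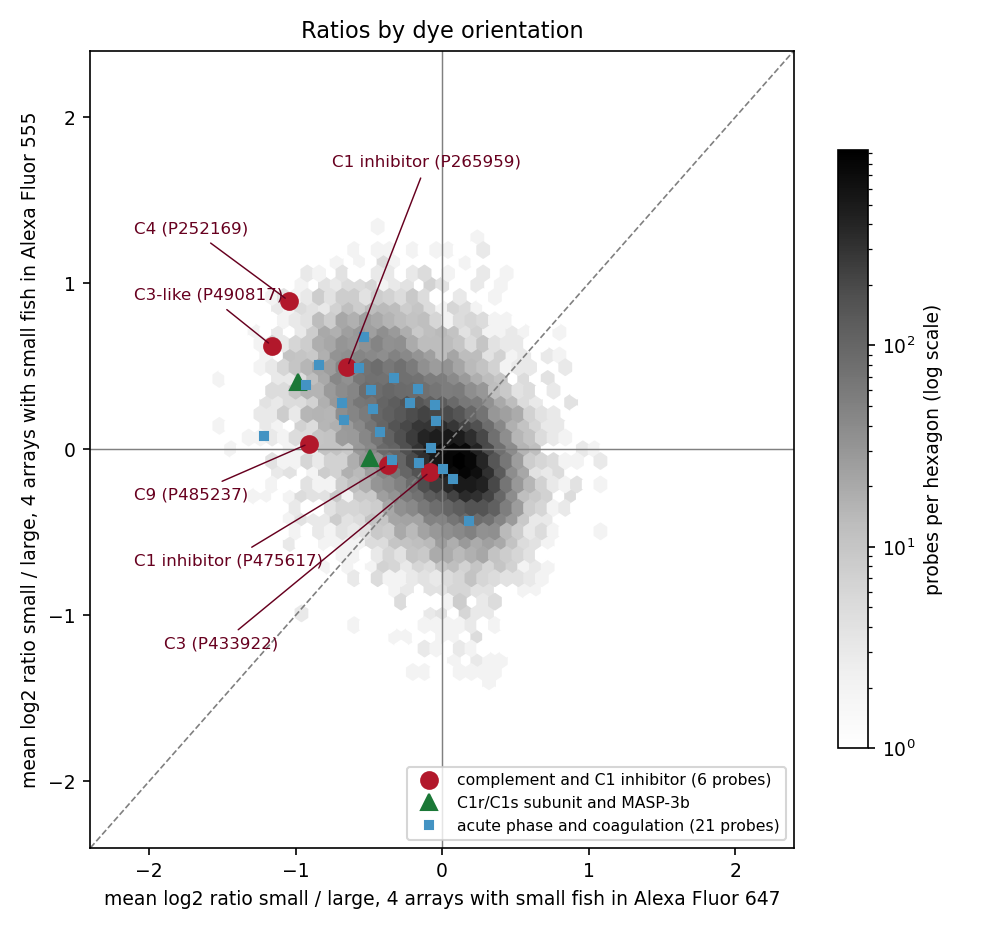
Mean log2 ratio of small over large fish on the 4 arrays in the 555 orientation (vertical axis) against the 4 arrays in the 647 orientation (horizontal axis), for 33291 probes with a value on all 8 arrays (grey hexagons, log scale). Red circles are the 6 members, green triangles the C1r/C1s subunit and MASP-3b, and blue squares 21 acute phase and coagulation probes. A probe with the same ratio in both orientations lies on the dashed line, as C3 nearly does, and C4, the C3-like probe and the C1 inhibitor probe A_05_P265959 lie above and left of it.

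Within a single orientation the members gave opposite pictures. In the 647 orientation their median log2 ratio was -0.50 in Sept. and -0.98 in Dec. On these arrays 2 members passed the thresholds in Sept., C9 and the C3-like probe, and 4 in Dec., C4, C9, the C3-like probe and A_05_P265959, all lower in small fish (2.39% and 7.66% of all probes passed as lower). In the 555 orientation the median was 0.49 in Sept. and 0.17 in Dec. There 3 members passed in Sept., C4, the C3-like probe and A_05_P265959, and 1 in Dec., C4, all higher in small fish (3.85% and 5.64% of all probes). C3 and the C1 inhibitor probe A_05_P475617 passed in neither orientation. If the sign is turned in the 555 orientation, 4 members passed as lower in Sept. (6.66% of all probes) and 3 in Dec. (12.4%), and the medians were -0.54 and -0.51. The number of members past the thresholds and the direction of C4, the C3-like probe and A_05_P265959 thus depended on how the dye flip was read.

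Other proteases of the cascade with a name were a C1r/C1s subunit (A_05_P457602), which cleaves C4 and C2 in the classical pathway, and mannose-binding lectin-associated serine protease 3b (MASP-3b, A_05_P475232), of the lectin pathway. The C1r/C1s subunit had log2 ratios of -0.66 and -0.45 in Sept. against -1.47 and -1.35 in Dec. in the 647 orientation, and of 0.60 and 0.24 in Sept. against 0.41 and 0.37 in Dec. in the 555 orientation. Its ratio followed the dye on all 8 arrays, as those of C4 did, with a dye term of -1.39 (limma, SE 0.21, adjusted p = 0.045). Its means were -0.068 in Sept. and -0.51 in Dec. (limma, SE 0.12 each), and the Dec. mean passed the thresholds with an adjusted p of 0.990226. MASP-3b averaged -0.33 in Sept. and -0.22 in Dec. (SE 0.31 each), passed in neither lot and had a dye term of -0.44 (SE 0.37, adjusted p = 0.515). So 0 of these 2 probes passed in Sept. and 1 in Dec., lower in small fish (1.21% and 2.75% of all probes passed as lower).

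The C1q-domain proteins, relatives of the recognition part of C1 by their domain, had 6 named probes, of which 0 passed in either lot. Of all probes 2.72% passed in Sept. and 4.84% in Dec. Their medians were -0.016 in Sept. and -0.079 in Dec. The largest lot means were those of complement C1q-like protein 4 (A_05_P332842), at -1.58 in Sept. and -1.11 in Dec. (SE 0.91 each), and of C1q tumor necrosis factor-related protein 3-like (A_05_P461537), at 0.97 in Sept. and -0.11 in Dec. (SE 0.42 each). For C1q-like protein 4 the pool pair means were -1.39 and -1.78 in Sept., both low, against 0.83 and -3.06 in Dec., on opposite sides of 0. For C1q tumor necrosis factor-related protein 3-like they were 0.45 and 1.49 in Sept. against -0.80 and 0.59 in Dec. The SD between pool pairs of C1q-like protein 4 was 0.27 in Sept. and 2.74 in Dec., and its SE comes from a spread shared by both lots. With its own test the study called this probe higher in Sept. liver of large fish, and it reported the same direction by quantitative PCR.

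Acute phase and coagulation proteins had 21 named probes. Most are plasma proteins that the liver secretes beside complement, but the list also holds tissue-type plasminogen activator and plasminogen activator inhibitor 1, which other cells make too. In each lot 1 of 21 passed, lower in small fish, and it was the same probe, inter-alpha-trypsin inhibitor heavy chain H3-like (A_05_P267179), which stabilizes hyaluronan, at -0.57 in Sept. and -0.56 in Dec. (SE 0.15 each). Of all probes 2.72% passed in either direction in Sept. and 4.84% in Dec., so this count describes the probe and not the list. The list's median was 0.016 in Sept. and -0.20 in Dec. By orientation the medians were -0.18 in Sept. and -0.61 in Dec. in the 647 orientation, and 0.17 in Sept. and 0.27 in Dec. in the 555 orientation. A dye term past an adjusted p of 0.05 (limma) was found for 2 of 21, ceruloplasmin (A_05_P365482), a copper carrier, at -1.35 (SE 0.22, adjusted p = 0.0484), and antithrombin-III (A_05_P249134), a serpin that blocks thrombin, at -1.06 (SE 0.18, adjusted p = 0.0498). Among all probes 0.949% had a dye term past that level. The dye terms of 5 probes for other proteins that hepatocytes secrete did not all have this sign, and 0 of these probes passed the thresholds in Sept. and 1 in Dec. Apolipoprotein B-100 had a dye term of -1.46 on probe A_05_P255119 (SE 0.25, adjusted p = 0.0494) and of -0.79 on A_05_P486052 (SE 0.18, adjusted p = 0.0697), with Dec. means of -0.51 (SE 0.18), past the thresholds, and 0.042 (SE 0.13). Albumin had a dye term of 1.74 on probe A_05_P368112 (SE 0.35, adjusted p = 0.0583) and of -0.022 on A_05_P249414 (SE 0.27, adjusted p = 0.969). The dye term of apolipoprotein A-I (A_05_P249389) was 1.35 (SE 0.32, adjusted p = 0.0741).

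Probes for other cell types also passed the thresholds, which 2.72% of all probes did in Sept. and 4.84% in Dec. A probe may be on the lists used here because the study called and named it on these same liver arrays. Counts on these lists are not free of that choice, and the shares of all probes are given for scale only. Of 13 red blood cell probes, mostly hemoglobins, 6 passed as lower in small fish in Sept. and 10 as higher in small fish in Dec., with medians of -0.42 and 0.71. Their medians had the same sign in both orientations. In Sept. they were -0.35 in the 647 orientation and -0.48 in the 555 orientation, and in Dec. 0.505 and 0.96. Of 7 probes tested from a leukocyte list, 0 passed in Sept. and 2 passed as higher in Dec. These were A_05_P369897, named for T-cell immunoglobulin and mucin domains, at 0.99 and A_05_P449432, whose name says chemokine-like, at 0.78. Whether the probes of this list read leukocytes was not tested. Of 22 skeletal muscle probes 1 passed in each direction in Sept. and 1 as lower in Dec. With a value on all 8 arrays, 13 red blood cell, 6 leukocyte and 20 muscle probes had a dye term. Of these 0 passed an adjusted p of 0.05 (limma), against 0.949% of all probes. At that share so few probes give no contrast with the other lists. The part of blood in the complement ratios was not tested.

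Among 1323 other named probes with values on all 8 arrays, the 5 closest to the median profile of the members were RNA-binding protein 4b (A_05_P388452), with a root mean square difference of 0.226 on the log2 scale, neutral alpha-glucosidase AB-like (A_05_P259469), 0.228, calmodulin (A_05_P377098), 0.263, antithrombin-III (A_05_P249134), 0.270, and interferon-induced transmembrane protein (A_05_P275264), 0.272. The median over all of them was 0.720. The median profile of the members was below 0 on all 4 arrays in the 647 orientation, and in the 555 orientation above 0 on all but the first Dec. pool pair. In the second Sept. and the first Dec. pool pair it lay near 0 in the 555 orientation, with 3 of 6 members below 0. The medians of the members on the 8 arrays were -0.65 and -0.33 in Sept. against -1.06 and -0.78 in Dec. in the first orientation, and 0.85 and 0.12 in Sept. against -0.056 and 0.36 in Dec. in the second.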

How the data were processed

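Liver mRNA pools of small and large trout were compared on 8 two-color Agilent arrays, 4 per lot. The authors used GenePix Pro 6.1 to quantify spots, excluded those rejected on inspection and points with a low channel ratio, and normalized by lowess in GeneSpring GX 7.3.1. The deposited values are log2 ratios, taken as they are and as small over large fish. Of 43663 lines, 60 control spots were dropped. Between 3.86% and 15.7% of values were empty. Single-channel signals were not used here, so precision rests on the number of pool pairs, and pools may differ technically as well as by fish.

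Names come from the platform annotation (221 symbols) and the study's tables (1308 names). Those tables list probes that the study called in liver, on these same arrays, or in white muscle. Counts on every list of named probes are therefore not free of the study's calls, and the shares beside them are for scale only. The columns of fold changes and p-values in those tables were not used. The members and lists were chosen with earlier results of these data known. Besides the members, the text names every other complement protease probe, the probes of further lists past the thresholds or with the largest means that bear on the members, and the 5 probes nearest to the members' profile.

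Dye flips were averaged (avearrays) and the 4 pool pairs fitted in limma 3.58.1 (R 4.3.3, lmFit and eBayes) with a mean per lot and a shared spread. Probes with values on all 4 arrays of the lot were tested, and those with values on all 8 for the lot difference and the dye term (statmod 1.5.0, duplicateCorrelation). P-values were adjusted by Benjamini-Hochberg over all probes tested. The code was tested on simulated data. In all, 17 alternatives were computed, with further ones for the dye term and lot difference chosen after seeing the data. Tables and figures used Python 3.11.15, pandas 2.3.3, numpy 2.4.6 and matplotlib 3.10.9.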

Additional observations from a re-analysis of the deposited data

Results flagged for a closer look

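Complement component C9 (A_05_P485237) in the Dec. lot had 1 array far from the other 3. The array of the second pool pair in the 555 orientation had a log2 ratio of 0.25, while the remaining arrays lay between -1.03 and -0.90, and its gap to the nearest of them was 0.895 of the whole range, above the critical value of Dixon's test for 4 values. Of 12 groups of 4 arrays examined (6 members in each lot) this was the only 1. Chance gives about 1 in 20 for each group, so 1 flag among 12 groups is not unusual. Dixon's test also takes the 4 arrays as independent, while they are dye flips of the same pool pairs.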

How the results depend on the processing

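With 2 pool pairs to a lot, no signal strengths and no stated ratio direction, single calls are weakly bound. Many alternatives changed only the error and left the log2 ratio as it was. Examples are each lot fitted alone, the methods' t-tests and the replicate block. Under these a member could not change direction, so the count of values that kept it is no measure of stability. Of 204 values of single members under 17 alternatives, 164 kept their direction and side of the thresholds, 18 newly passed (4 of them with changed sign), 7 (all C9 in Dec.) no longer passed and 19 changed sign. The cause was not tested.

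In the 647 orientation alone, 2 members passed in Sept. and 4 in Dec. (medians -0.50 and -0.98), among 1606 and 4029 of all probes. Sept. changed sign for C4 (-0.70) and the C1 inhibitor probes A_05_P265959 (-0.305) and A_05_P475617 (-0.17), and C3 was at 0.00005 in Dec. In the 555 orientation alone, 3 members passed in Sept. (medians 0.49 in Sept., 0.17 in Dec.), among 1915 and 3104 probes. C9 (0.41) and the C3-like probe (0.70) changed sign in Sept., and C4 (0.64), A_05_P265959 (0.41) and the C3-like probe (0.55) in Dec. With the sign turned, 4 members passed in Sept. (median -0.54) and 3 in Dec., among 3664 and 6809 probes. C4 (-0.92), A_05_P265959 (-0.44), A_05_P475617 (-0.24) and C3 (0.015) changed sign in Sept., and C3 (0.038) in Dec.

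In Dec. 0 members passed with arrays scaled to one median absolute deviation (956 probes), with the methods' t-test over arrays (709) or pool pairs (499), or with a trend in the variance prior. The study reported fewer liver probes in Dec. than any of these, so its calls were not reproduced here. A fold of at least 1.5 left 684 probes in Dec. and 569 in Sept. The Sept. count over all probes was 1611 with each lot fitted alone, 648 and 442 with the t-test over arrays and over pool pairs, and 595 with the trend.

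Without 1 of the pool pairs, between 1212 and 1832 probes passed in Sept. and between 1182 and 3671 in Dec., 0 to 3 members in Dec. and 0 to 0 in Sept. Member medians ranged from -0.18 to 0.069 in Sept. and from -0.56 to -0.11 in Dec. The Sept. mean ranged from -0.081 to 0.54 for C4, from -0.52 to 0.16 for C3, from -0.034 to 0.18 for A_05_P475617 and from -0.53 to 0.085 for C9, and the Dec. mean of C3 from -0.37 to 0.29. The lot difference ranged from 0.30 to 0.92 for C4, highest without the first Sept. pool pair. For A_05_P475617 it ranged from 0.13 to 1.07, highest without the second Dec. pool pair. For the dye term 0 to 0 members passed.

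The pool pair numbers did not pair the samples (r = 0.0319 over 33291 probes). With the number as a replicate block 2131 probes passed in Sept. For the lot difference 1 member, C4, then passed an unadjusted p of 0.05 (limma), among 1284 of 33291 probes.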
